A study of Homo sapiens with 6 samples.

Results

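Integrin subunits were examined in A549 cells, an established line from a human lung adenocarcinoma, on 6 Affymetrix arrays in 3 groups of 2. The genes were ITGA2, ITGA3, ITGA5, ITGA6, ITGAV, ITGB1, ITGB4, ITGB5, ITGB6 and ITGB8. They were found by their symbols in the platform annotation, and each gene was represented by its probe set of highest mean. Of these 10 subunits, 9 had a probe set with a single symbol, out of 11963 such genes on the array, and ITGB6 appeared only on 2 probe sets that also carry the symbol of a long noncoding RNA gene, LINC02478.

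One group, called PIAS3 here, was transfected with a pCMV5 vector carrying human PIAS3, a SUMO E3 ligase that binds and inhibits the transcription factor STAT3. Another group was transfected with an siRNA against STAT3. The control group was EGF-stimulated and, by its labels, untransfected, and no arrays of an empty vector or a nontargeting siRNA were analysed here. Cells were seeded for 12 h with 10% FBS, and according to the design text every group was kept without serum and then given EGF, a growth factor that signals through the EGF receptor, whereas the sample names give EGF for the controls alone. The cells of the 2 transfected groups were harvested 48 h after transfection, and no harvest time is recorded here for the controls. No label says that a group's 2 arrays came from separate cultures, so the p-values measure only the spread between arrays, possibly a technical one, and their number limits the precision.

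Integrins are cell surface receptors made of an alpha and a beta subunit, and each pairing has its own ligands in the extracellular matrix. In airway and lung epithelium the beta-1 pairings bind fibronectin, collagen and laminin, the alpha-6 beta-4 pairing anchors hemidesmosomes to the laminin of the basement membrane, and the alpha-V pairings bind ligands with an RGD motif and can activate latent TGF-beta. On the inner side of the membrane the beta tails recruit talin and kindlin, and through them vinculin, kinases and the actin cytoskeleton. RNA levels do not show how much of a subunit is paired at the surface. In these bulk samples, fewer cells of a type and less RNA per cell cannot be told apart.

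The subunits with the smallest unadjusted p for PIAS3 against control were ITGAV and ITGA5, lower in all 4 transfected arrays, and ITGB5, higher in both PIAS3 arrays than in the other 4. Their promoter windows are shown for that reason, as the 250 bases before the farthest upstream start that RefSeq gives each gene on GRCh38.p14, 5′ to 3′ on the gene's own strand. Capitals mark a GC box (GGGCGG) or a TEAD motif (GGAATG) on either strand. The ITGAV window lies at chr2:186589806-186590055 on the plus strand, the ITGA5 window at chr12:54419267-54419516 on the minus strand, and the ITGB5 window at chr3:124901419-124901668 on the minus strand.
ITGAV: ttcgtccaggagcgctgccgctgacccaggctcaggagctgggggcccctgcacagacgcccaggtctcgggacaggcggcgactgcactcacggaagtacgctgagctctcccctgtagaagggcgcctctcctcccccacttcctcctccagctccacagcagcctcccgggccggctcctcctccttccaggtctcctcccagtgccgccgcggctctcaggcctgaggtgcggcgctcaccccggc
ITGA5: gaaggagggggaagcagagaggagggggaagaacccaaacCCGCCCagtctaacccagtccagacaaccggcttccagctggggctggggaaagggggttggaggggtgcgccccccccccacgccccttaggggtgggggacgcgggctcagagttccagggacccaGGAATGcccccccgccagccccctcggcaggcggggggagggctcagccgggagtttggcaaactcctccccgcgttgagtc
ITGB5: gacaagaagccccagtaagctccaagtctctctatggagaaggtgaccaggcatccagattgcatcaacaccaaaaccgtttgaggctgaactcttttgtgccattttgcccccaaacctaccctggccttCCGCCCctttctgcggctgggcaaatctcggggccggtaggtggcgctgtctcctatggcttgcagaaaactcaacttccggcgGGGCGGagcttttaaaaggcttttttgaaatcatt

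The printed windows differed in base composition, with a GC content of 70.8% for ITGAV, 70.0% for ITGA5 and 52.8% for ITGB5. Windows at other starts of these genes had 56.4% and 75.2% for ITGB5, the latter with 3 GC boxes, and 40.8% for ITGAV. The contrast thus depends on which start is taken. The ITGAV window held no match to any motif searched, the ITGA5 window held 1 TEAD motif and 1 GC box, and the ITGB5 window held 2 GC boxes. RefSeq gave 13 windows for 8 of the 10 subunits. Across them the STAT motif TTCNNNGAA had 0 matches, where 6.57% of all 35116 windows of the same length hold one, and the AP-1 motif TGANTCA had 0 matches, where 6.57% hold one. The TEAD motif was in 2 windows, of ITGA5 and ITGB1, against 11.9% of all windows, and the GC box was in 7 windows of 6 genes, against 42.6%. Both strands were searched, the matches in the printed windows do not overlap, and a match describes only the letters there.

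The targeted genes came first as a check of the labels. STAT3 read 10.50 and 10.43 in control, 10.18 and 9.70 with PIAS3 and 10.23 and 9.94 with the siRNA, on the log2 scale of the deposited values. All 4 transfected arrays lay below both controls, and neither difference passed the test (limma adjusted p of 0.254 with PIAS3 and 1.0 with the siRNA). PIAS3 itself read 7.70 and 7.71 in control, 7.78 and 7.72 with the vector and 7.50 and 7.64 with the siRNA. Whether its probes lie within the vector's insert is not known here, so this level checks nothing about the vector. The array medians lay between 6.63 and 6.72. PIAS3 replicate 1 stood apart from the other 5 arrays: its poly-A spike-in probe sets were 1.41 above the control mean, and the antiviral gene MX1 read 10.61, against 4.82 to 5.05 elsewhere. The excess of the 3′ over the 5′ actin probe sets, a sign of RNA quality, was 0.43 and 0.28 with PIAS3, 0.12 and 0.10 in control and 0.16 and 0.23 with the siRNA. STAT3 siRNA replicate 2 was nearer to PIAS3 replicate 2 (an SD of 0.19 between their probe set values) than to the other array of its own group (0.25). The part of these differences in the values below was not tested, and each value is also given without single arrays where that matters.

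The epithelial identity in the labels was matched by the keratins KRT7, KRT8 and KRT18, which read between 12.39 and 13.79 in every array. It was not matched by all markers: EPCAM read 6.04 to 7.24 and CLDN4 5.61 to 6.35, no higher than the leukocyte marker CD3E at 6.63 to 7.09 or close to it. The mean of all 7 epithelial markers ranged from 10.31 to 10.37 in control, 10.00 to 10.13 with PIAS3 and 9.89 to 10.22 with the siRNA, so it was lower in all 4 transfected arrays, and its part in the integrin values was not tested. Within that list KRT19 read 11.16 and 11.02 in control, 9.02 and 9.34 with PIAS3 and 10.76 and 9.42 with the siRNA, while CDH1, the adhesion molecule E-cadherin, went the other way, at 8.31 and 8.19, 9.54 and 9.14, and 8.37 and 8.60. The 6 measured leukocyte markers averaged 5.57 to 5.6, 5.76 to 5.87 and 5.51 to 5.70 in the same order, and their higher values with PIAS3 came with CD14, at 5.87 and 5.83 in control and 6.84 and 6.54 with PIAS3. The defining leukocyte marker PTPRC lay between 3.85 and 3.95. The 5 endothelial markers averaged 5.07 to 5.14 in control, 5.11 to 5.16 with PIAS3 and 5.15 with the siRNA in both arrays. The 7 fibroblast markers averaged 5.74 to 5.76, 5.65 to 5.79 and 5.72 to 5.82, and the 4 platelet markers 6.10 to 6.11, 6.23 to 6.30 and 6.17 to 6.39. Within the fibroblast list COL1A1 stood higher, at 8.58 to 8.88 over the 6 arrays. Array control probe sets for transcripts that human cells lack read from 3.26 to 3.93. Of these other cell types' markers, LUM of fibroblasts did not exceed that range in any array. Others, such as CD3E and the platelet marker PF4 at 7.03 to 7.27, read far above it. A value above the range therefore does not by itself show expression. The ITGA2, ITGB6 and ITGB8 probe sets described below did not exceed PF4 in any array.

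No integrin subunit passed the threshold in any comparison, an adjusted p under 0.05 in limma with Benjamini-Hochberg adjustment over all 22215 probe sets. Against control, 0 of 9 subunits passed with PIAS3, where 0.125% of all genes did (15 of 11963). With the siRNA 0 of 9 passed, where 0.00836% of all genes did (1 of 11963). Between PIAS3 and the siRNA 0 of 9 passed, where the share of all genes was 0.00%. The differences of ITGAV, ITGA5 and ITGB5 described below are therefore given as values, not as changes.

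At an unadjusted p under 0.05, 2 of 9 subunits, ITGAV and ITGA5, were lower with PIAS3 than in control, beside 7.44% of all genes, and 0 were higher, beside 7.13%. With the siRNA 3 of 9 were lower, ITGAV, ITGA5 and ITGB4, beside 3.06% of all genes, and 0 were higher, beside 2.32%. Without control replicate 1 these counts of lower subunits were 1 with PIAS3 and 1 with the siRNA, and the siRNA count was also 1 without STAT3 siRNA replicate 1. Between PIAS3 and the siRNA, 1 of 9, ITGB5, was higher with PIAS3, beside 4.19% of all genes, and 0 were lower, beside 3.83%. The count higher with PIAS3 than in control was 1 with quantile normalization again, cyclic loess, eBayes with a trend, the average of each gene's probe sets, and without PIAS3 replicate 2. The count against the siRNA was 2 with quantile normalization again and with cyclic loess. It was 0 without PIAS3 replicate 1 or STAT3 siRNA replicate 1, 3 without PIAS3 replicate 2 and 2 without STAT3 siRNA replicate 2.

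Groups of 2 arrays often fail to overlap, so that count was read against all genes. With PIAS3, both arrays lay below both controls for 3 of 9 subunits (ITGA3, ITGA5 and ITGAV), beside 23.7% of all genes, and above them for 1 (ITGB5), beside 22.4%. With the siRNA, 5 of 9 lay below (ITGA2, ITGA5, ITGAV, ITGB1 and ITGB4), beside 19.5%, and 0 above, beside 19.4%. Both PIAS3 arrays lay above both siRNA arrays for 3 of 9 (ITGB1, ITGB4 and ITGB5), beside 17.0%, and below them for 0, beside 17.5%. All 4 transfected arrays were below both controls for 2 of 9 (ITGA5 and ITGAV), beside 10.7% of all genes, and above both for 0, beside 9.01%. The median log2 difference of the 9 subunits was -0.14 with PIAS3 (range -0.59 to 0.30) and -0.11 with the siRNA (range -0.64 to 0.11), beside a median of -0.00 over all genes in both. Between PIAS3 and the siRNA it was 0.05 (range -0.10 to 0.40), beside -0.00.

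**Figure D1:**
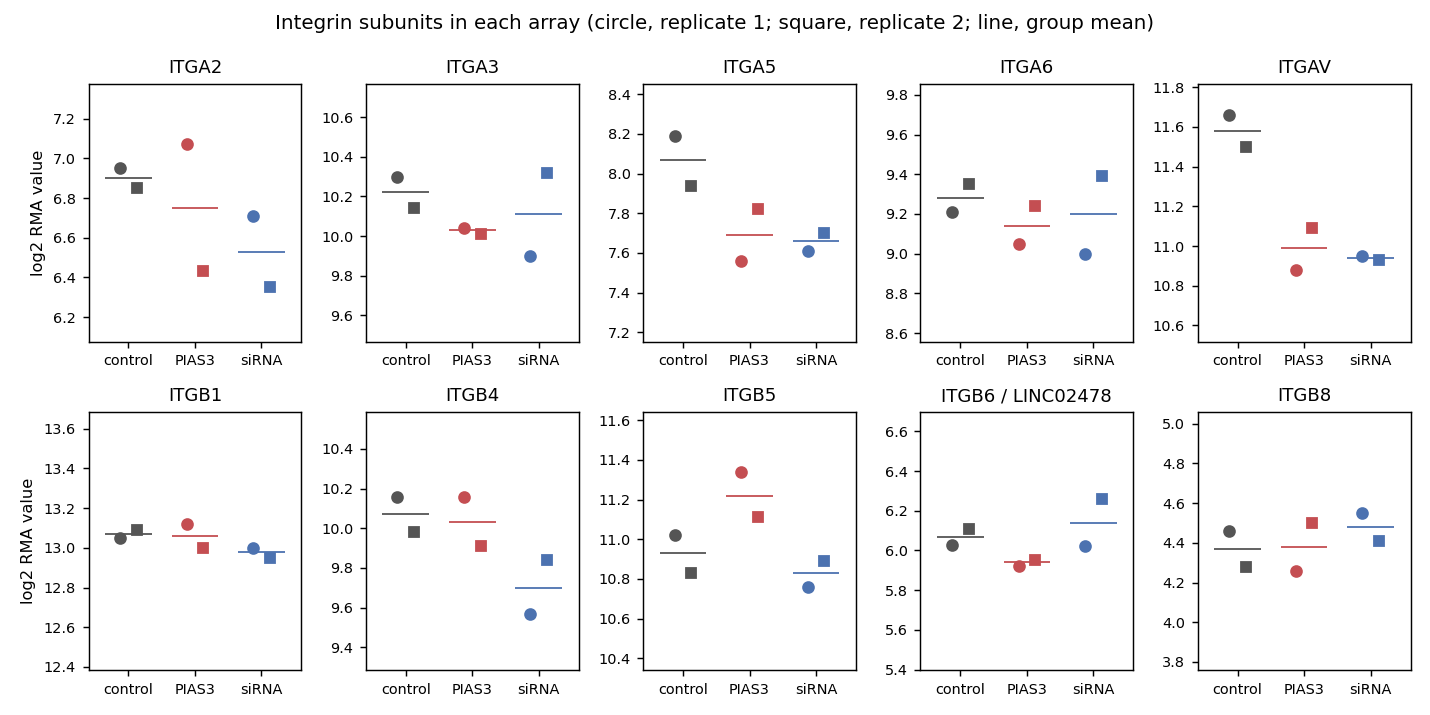
Deposited log2 RMA values (vertical axis, the same span in every panel) of each integrin subunit in the control, PIAS3 and STAT3 siRNA arrays; circles are replicate 1, squares replicate 2 and lines group means. ITGAV and ITGA5 lay below both controls in all 4 transfected arrays, ITGB5 was higher in both PIAS3 arrays, and the ITGB1 values stayed between 12.95 and 13.12.

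ITGAV encodes the alpha-V subunit, which pairs with beta-1, beta-3, beta-5, beta-6 or beta-8 to bind RGD ligands such as vitronectin and the latency peptide of TGF-beta. Its only probe set (Entrez gene 3685) read 11.66 and 11.50 in control, 10.88 and 11.09 with PIAS3 and 10.95 and 10.93 with the siRNA. Every transfected array was below both controls, and the ranges of the PIAS3 and siRNA arrays overlapped. The log2 difference from control was -0.59 ± 0.12 with PIAS3 (SE, n = 2 per group; 95% interval -0.88 to -0.31), a level 1.51-fold lower, with an unadjusted p of 0.00165 and an adjusted p of 0.108 in limma.

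With the siRNA the ITGAV difference from control was -0.64 ± 0.12 (95% interval -0.92 to -0.35), 1.56-fold lower, with an unadjusted p of 0.00107 and an adjusted p of 0.473 in limma. Both comparisons use the same 2 control arrays, so they are not independent of each other. ITGAV was the only subunit called under any alternative, and only without PIAS3 replicate 2, where its difference was -0.70. In that fit PIAS3 replicate 1, the array that stood apart in its spike-ins and MX1, stands alone for its group. The counts over all probe sets with PIAS3 were also largest there, so the call is not particular to ITGAV. Without PIAS3 replicate 1 the ITGAV difference was -0.49. PIAS3 and the siRNA differed from each other by 0.05 ± 0.12 in ITGAV (95% interval -0.24 to 0.33), so the order of the group means was control above both, with no separation between the transfected groups.

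ITGB5 encodes the beta-5 subunit, whose known partner is alpha-V in the vitronectin receptor of epithelial cells. Its brightest probe set (Entrez gene 3693) read 11.02 and 10.83 in control, 11.34 and 11.11 with PIAS3 and 10.76 and 10.89 with the siRNA. Both PIAS3 arrays exceeded both arrays of either other group, and the siRNA arrays overlapped the controls. The log2 difference from control was 0.30 ± 0.13 with PIAS3 (95% interval -0.01 to 0.60; unadjusted p = 0.0569, adjusted p = 0.379 in limma) and -0.10 ± 0.13 with the siRNA (95% interval -0.41 to 0.21). PIAS3 exceeded the siRNA by 0.40 ± 0.13 (95% interval 0.09 to 0.70; unadjusted p = 0.0185, adjusted p = 0.607). The other 3 probe sets of ITGB5 gave the same sign with PIAS3: 0.34 ± 0.12, 0.44 ± 0.14 and 0.16 ± 0.18. The first 2 had unadjusted p-values of 0.0254 and 0.0164 and adjusted p-values of 0.278 and 0.238 in limma. With the siRNA the 3 gave 0.07 ± 0.12, -0.14 ± 0.14 and 0.10 ± 0.18, so the probe sets disagreed in sign there. In the first of them all 4 transfected arrays were above both controls.

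The ITGB5 probe set with the largest PIAS3 difference read 8.15 and 8.05 in control, 8.70 and 8.39 with PIAS3 and 7.85 and 8.07 with the siRNA. Both PIAS3 arrays were again the highest, and PIAS3 exceeded the siRNA by 0.58 ± 0.14 (95% interval 0.25 to 0.91; unadjusted p = 0.00432, adjusted p = 0.607 in limma). In all 4 ITGB5 probe sets PIAS3 replicate 1 was the highest array, and without it the difference of the brightest probe set from control was 0.18, against 0.41 without PIAS3 replicate 2. ITGAV and ITGB5, which pair with each other, thus had PIAS3 values on opposite sides of control. With the siRNA, ITGAV was below both controls while the arrays overlapped them in the brightest ITGB5 probe set.

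ITGB8 and ITGB6 encode further beta partners of alpha-V, both known for activating latent TGF-beta. ITGB8 read 4.46 and 4.28 in control, 4.26 and 4.50 with PIAS3 and 4.55 and 4.41 with the siRNA, so the 3 groups overlapped. All of these values were above the range of the absent-transcript controls, which does not by itself show expression. The other ITGB8 probe set, at 3.24 to 3.45 over the 6 arrays, was within or below that range. The differences from control were 0.01 ± 0.13 (95% interval -0.30 to 0.32) with PIAS3 and 0.11 ± 0.13 (95% interval -0.20 to 0.42) with the siRNA. RMA compresses changes at such low signal, which limits what these intervals can show.

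The 2 probe sets shared by ITGB6 and LINC02478 carry an accession that the RefSeq table gives to ITGB6, but their signal is credited to neither gene alone, and they stay out of the counts. The brighter one read 6.03 and 6.11 in control, 5.92 and 5.95 with PIAS3 and 6.02 and 6.26 with the siRNA, and the other 5.18 and 5.25, 5.12 and 5.13, and 5.0 and 4.99. Both PIAS3 arrays were below both controls in each, by -0.13 ± 0.12 and -0.09 ± 0.10 in the means, and the siRNA arrays were below control in the second one only (0.07 ± 0.12 and -0.22 ± 0.10). No difference of these probe sets had an unadjusted p under 0.05.

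ITGA5 encodes the alpha-5 subunit of the classical fibronectin receptor, where it pairs with beta-1. Its only probe set (Entrez gene 3678) read 8.19 and 7.94 in control, 7.56 and 7.82 with PIAS3 and 7.61 and 7.70 with the siRNA. All 4 transfected arrays were below both controls, with PIAS3 replicate 2 nearest to them. The log2 difference from control was -0.38 ± 0.14 with PIAS3 (95% interval -0.70 to -0.05; unadjusted p = 0.0286, adjusted p = 0.289 in limma) and -0.41 ± 0.14 with the siRNA (95% interval -0.73 to -0.08; unadjusted p = 0.0207, adjusted p = 0.959). These are levels 1.30-fold and 1.33-fold lower, and PIAS3 and the siRNA differed from each other by 0.03 ± 0.14 (95% interval -0.29 to 0.36). Without single arrays the ITGA5 difference ranged from -0.51 to -0.25 with PIAS3, reaching -0.25 without control replicate 1 and without PIAS3 replicate 1, and from -0.53 to -0.28 with the siRNA.

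ITGB1 encodes the beta-1 subunit, the shared partner of alpha-2, alpha-3, alpha-5, alpha-6 and alpha-V. Its brightest probe set read 13.05 and 13.09 in control, 13.12 and 13.00 with PIAS3 and 13.00 and 12.95 with the siRNA. The PIAS3 arrays spanned the controls, and both siRNA arrays lay below them. The differences from control were -0.00 ± 0.11 with PIAS3 (95% interval -0.25 to 0.24) and -0.09 ± 0.11 with the siRNA (95% interval -0.34 to 0.15), and a change within those bounds was not detectable with 2 arrays a group. Its SD over the 6 arrays was 0.06, the smallest of the 9 subunits, against 0.33 for ITGAV, the largest.

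One other ITGB1 probe set did not follow that one. It was at 6.06 and 6.31 in control, 5.83 and 5.88 with PIAS3 and 5.97 and 6.10 with the siRNA, so the PIAS3 arrays lay below both controls (-0.33 ± 0.12, unadjusted p = 0.0308, adjusted p = 0.297 in limma). The remaining 3, between 3.0 and 3.83 in every array, never exceeded the absent-transcript controls and carry no information on ITGB1.

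ITGA2, ITGA3 and ITGA6 encode alpha subunits that pair with beta-1 to bind collagen (alpha-2) and laminins (alpha-3 and alpha-6). ITGA2 read 6.95 and 6.85 in control, 7.07 and 6.43 with PIAS3 and 6.71 and 6.35 with the siRNA. The PIAS3 arrays lay on either side of the controls, and both siRNA arrays were below them. The differences were -0.15 ± 0.22 with PIAS3 (95% interval -0.66 to 0.36) and -0.37 ± 0.22 with the siRNA (95% interval -0.88 to 0.14; unadjusted p = 0.132). ITGA2 had the least certain PIAS3 value of the 9: it was -0.47 without PIAS3 replicate 1 and 0.17 without PIAS3 replicate 2.

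ITGA3 read 10.30 and 10.14 in control, 10.04 and 10.01 with PIAS3 and 9.90 and 10.32 with the siRNA. Both PIAS3 arrays were just below the controls, and the siRNA arrays straddled them. The differences were -0.19 ± 0.15 with PIAS3 (95% interval -0.55 to 0.17) and -0.11 ± 0.15 with the siRNA (95% interval -0.47 to 0.25), and the second was 0.10 without STAT3 siRNA replicate 1. ITGA6, the laminin receptor chain that pairs with beta-1 or beta-4, read 9.21 and 9.35 in control, 9.05 and 9.24 with PIAS3 and 9.0 and 9.39 with the siRNA, and its groups overlapped. Its differences were -0.14 ± 0.16 (95% interval -0.50 to 0.23) and -0.09 ± 0.16 (95% interval -0.45 to 0.28). The other ITGA6 probe set gave -0.32 ± 0.22 with PIAS3 and 0.15 ± 0.22 with the siRNA, so the probe sets disagreed in sign for the siRNA.

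ITGB4 encodes the beta-4 subunit, which pairs with alpha-6 alone and links laminin to the keratin network in hemidesmosomes. Its brightest probe set read 10.16 and 9.98 in control, 10.16 and 9.91 with PIAS3 and 9.57 and 9.84 with the siRNA. The PIAS3 arrays overlapped the controls, and both siRNA arrays were below every other array. The differences were -0.04 ± 0.15 with PIAS3 (95% interval -0.38 to 0.31) and -0.36 ± 0.15 with the siRNA (95% interval -0.71 to -0.02; unadjusted p = 0.0401, adjusted p = 1.0 in limma). PIAS3 and the siRNA differed by 0.33 ± 0.15 (95% interval -0.02 to 0.67; unadjusted p = 0.0589).

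The other 3 ITGB4 probe sets placed the lower values in the other group. They gave -0.32 ± 0.13 (unadjusted p = 0.0445, adjusted p = 0.345 in limma), -0.19 ± 0.18 and -0.27 ± 0.14 with PIAS3, and -0.10 ± 0.13, -0.04 ± 0.18 and -0.15 ± 0.14 with the siRNA. The first of them read 8.93 and 9.15 in control, 8.80 and 8.65 with PIAS3 and 8.84 and 9.04 with the siRNA. All 4 probe sets were on the lower side in both comparisons, except that the brightest one stood at 0.03 and 0.04 with PIAS3 after quantile normalization again and cyclic loess, at 0.05 without control replicate 1 and at 0.09 without PIAS3 replicate 2. Which transfection had the lower ITGB4 values depended on the probe set.

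**Figure D2:**
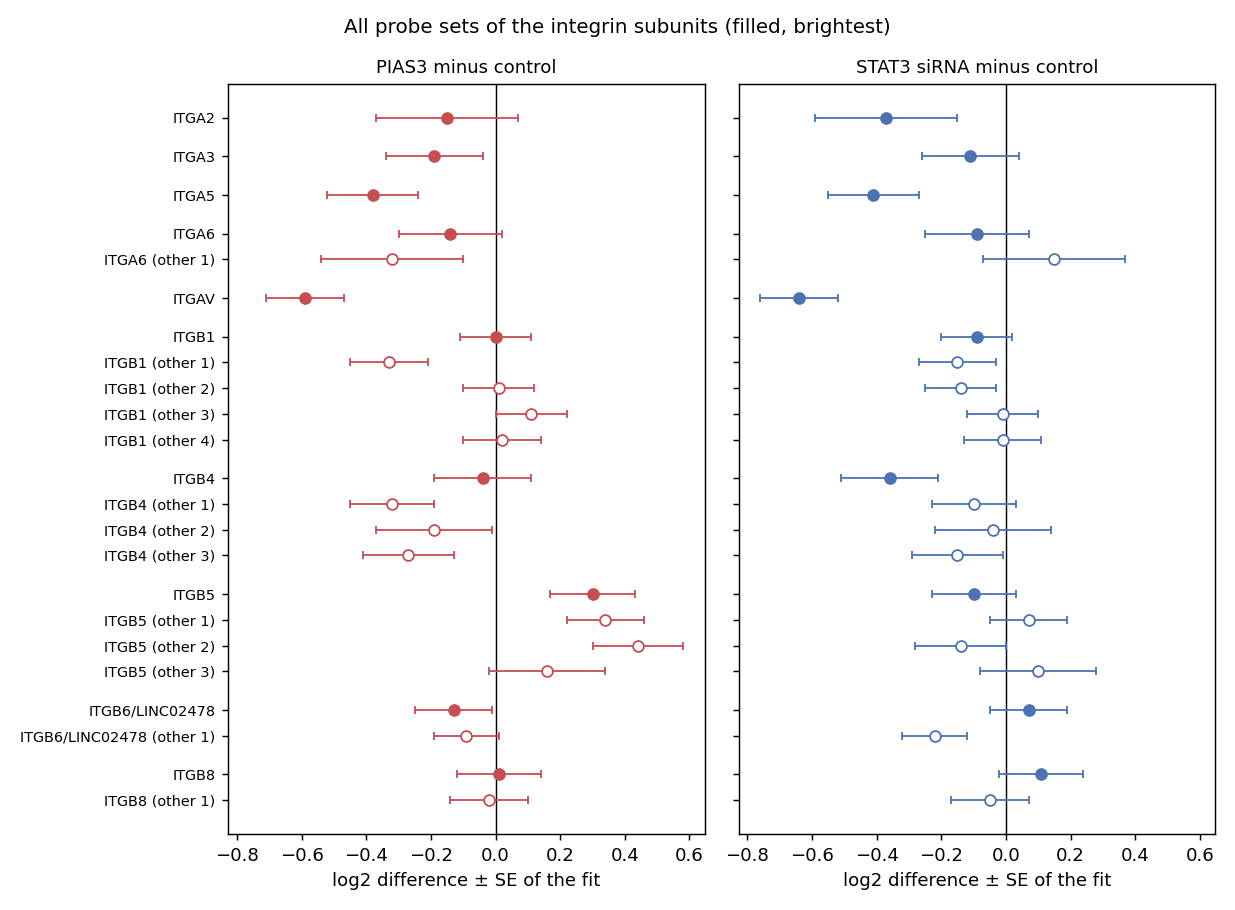
Log2 differences from control of all 23 probe sets of the integrin subunits, with the standard error of the limma fit as bars; filled points are the brightest probe set of each gene and open points the others, and ITGB6 shares its probe sets with LINC02478. All 4 ITGB5 probe sets lay above 0 with PIAS3, while those of ITGB4 ran from -0.32 to -0.04 with PIAS3 and from -0.36 to -0.04 with the siRNA.

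The subunits varied among themselves in different ways over the 6 arrays. ITGAV and ITGA5 had a Pearson r of 0.96 over the 6 arrays and ITGA2 and ITGB1 one of 0.90, whereas ITGAV and its partner ITGB5 had one of -0.21 and ITGA5 and its partner ITGB1 one of 0.09. These are descriptions over 6 arrays that share the group differences and the normalization. The genes whose profile was most like that of ITGAV, the most variable subunit, were sought among 8037 genes at or above the 40th percentile of mean level. They were CLSTN1 (r = 0.994), CCN2 (0.988), SCRN1 (0.988), SEPTIN8 (0.986) and P4HA2 (0.985), and 29 genes had an r over 0.95. The sizes differed: against control CLSTN1 stood at -0.12 with PIAS3 and -0.14 with the siRNA, SCRN1 at -0.18 and -0.19, SEPTIN8 at -0.34 and -0.40, P4HA2 at -0.49 and -0.44 and CCN2 at -1.13 and -1.14.

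**Figure D3:**
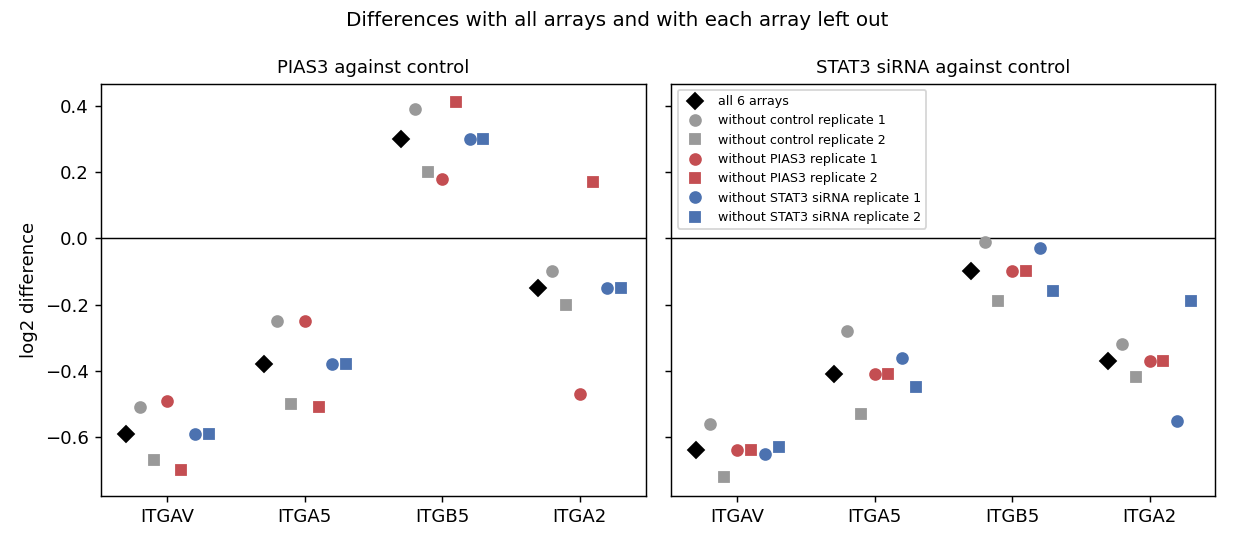
Log2 differences from control of ITGAV, ITGA5, ITGB5 and ITGA2 with all 6 arrays (black diamonds) and with each array left out in turn (circles for replicate 1, squares for replicate 2, coloured by group). ITGAV stayed between -0.70 and -0.49 with PIAS3 and between -0.72 and -0.56 with the siRNA, while ITGA2 moved between -0.47 and 0.17 with PIAS3.

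The other genes of the pathway were taken from lists of further integrin subunits, matrix ligands, adaptors and kinases, and membrane partners. The lists were chosen with earlier results of these data known, so their counts beside the shares of all genes are descriptions, not tests. Of 16 other subunits 14 were measured, and 0 passed in limma in either comparison with control. At an unadjusted p under 0.05, 0 of 14 were lower and 0 higher with PIAS3, beside 7.44% and 7.13% of all genes. With the siRNA 0 were lower and 0 higher, beside 3.06% and 2.32%. For 14 genes, counts of 0 are near those shares. Their median difference was 0.03 with PIAS3 (range -0.24 to 0.25) and -0.04 with the siRNA (range -0.17 to 0.19). The members with the smallest p for PIAS3 were ITGB3, a beta subunit best known from platelets and endothelium (0.25 ± 0.14), ITGA10, a collagen receptor chain (0.20 ± 0.14), ITGAE, the alpha chain of mucosal lymphocytes (-0.24 ± 0.20), and ITGB2, the shared beta chain of leukocytes (0.14 ± 0.15). Without PIAS3 replicate 2, where PIAS3 replicate 1 stands alone for its group, the PIAS3 counts at an unadjusted p under 0.05 were no longer 0. No share of all genes is given for that fit.

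Matrix ligands of integrins, 25 measured of 29, held the only gene of these lists past the threshold. CCN2, a matricellular protein that binds integrins, read 10.30 and 10.18 in control, 9.02 and 9.20 with PIAS3 and 9.13 and 9.07 with the siRNA. It fell by 1.13 ± 0.12 with PIAS3 (limma adjusted p = 0.0484), and it stood at -1.14 ± 0.12 with the siRNA (adjusted p = 0.202, and 0.0344 with array weights). The CCN2 call was lost without control replicate 1 (-1.07), without control replicate 2 (-1.19) and without PIAS3 replicate 1 (-1.04), in fits with fewer residual degrees of freedom. The same happened with the replicate number as a block, with quantile normalization again and without dim probe sets, at adjusted p-values between 0.0516 and 0.0662, and over all alternatives its adjusted p ranged from 0.00845 to 0.637.

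The next 3 ligands by p did not pass. CCN1, the matricellular relative of CCN2, read 11.87 and 12.00 in control, 10.41 and 10.87 with PIAS3 and 11.15 and 10.71 with the siRNA, and its differences were -1.29 ± 0.20 and -1.01 ± 0.20. TNC, the tenascin-C of remodelling matrix, read 6.89 and 6.40, 4.83 and 4.86, and 6.11 and 5.21 in the same order (-1.80 ± 0.29 and -0.99 ± 0.29). COL4A1, a chain of basement membrane collagen, read 10.76 and 10.68, 9.49 and 9.67, and 10.03 and 9.47 (-1.14 ± 0.18 and -0.97 ± 0.18). The adjusted p of each of these 3 was 0.0792 with PIAS3 in limma, and in all 3 every transfected array was below both controls. Each passed in limma with the 2 groups fitted alone (0.0401, 0.0229 and 0.0244) and with array weights (0.0371, 0.0483 and 0.0414). Leaving out either siRNA array gives the same fit as the 2 groups alone and adds nothing to it. Without PIAS3 replicate 2, where PIAS3 replicate 1 stands alone for its group, the differences were -1.52, -1.81 and -1.23. The TNC difference with PIAS3 was -0.93 when its probe sets were averaged.

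The ligand list was chosen with earlier results of these data known, so its counts describe it and test nothing. Over the list as a whole, 10 of 25 were lower and 2 higher with PIAS3 at an unadjusted p under 0.05, beside 7.44% and 7.13% of all genes. With the siRNA 10 were lower and 0 higher, beside 3.06% and 2.32%. The siRNA count of lower ligands was 5 without control replicate 1 and 6 without STAT3 siRNA replicate 2, and the PIAS3 count of higher ones was 1 without control replicate 2 or PIAS3 replicate 1 and 4 without PIAS3 replicate 2. All 4 transfected arrays were below both controls for 10 of 25 and above for 0, beside 10.7% and 9.01% of all genes. The list's medians, -0.07 and -0.12, lay near the -0.00 of all genes, with 15 of 25 ligands below 0 with PIAS3 and 18 with the siRNA.

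Adaptors and kinases of the adhesion site were measured for 30 of 36 genes, and 0 passed in limma in either comparison with control. At an unadjusted p under 0.05, 14 of 30 were lower and 3 higher with PIAS3, beside 7.44% and 7.13% of all genes. With the siRNA 4 were lower and 2 higher, beside 3.06% and 2.32%. These counts too are descriptions, since the list was chosen with earlier results known. FERMT2, the kindlin that binds beta tails, stood at -0.86 ± 0.13 with PIAS3 and -0.58 ± 0.13 with the siRNA. VCL, vinculin, stood at -0.88 ± 0.15 and -0.52 ± 0.15, and TGFB1I1, the adaptor Hic-5, at -0.96 ± 0.17 and -0.70 ± 0.17. ZYX, zyxin of focal adhesions and actin fibres, stood at -0.71 ± 0.13 and -0.30 ± 0.13. Every transfected array was below both controls for these 4 genes, with PIAS3 replicate 1 the lowest array in each. All 4 passed with PIAS3 without PIAS3 replicate 2, and FERMT2, VCL and TGFB1I1 with array weights. The VCL difference with PIAS3 was -0.54 when its probe sets were averaged.

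The adaptor counts changed when single arrays were left out, in fits with fewer residual degrees of freedom. A lower count in such a fit does not by itself show reliance on the array left out. The 14 lower with PIAS3 were 7 without control replicate 1, and the 3 higher were 0 without control replicate 1, control replicate 2 or PIAS3 replicate 1. The 4 lower with the siRNA were 2 without control replicate 1, 8 without either PIAS3 array and 7 without STAT3 siRNA replicate 1, and the 2 higher were 1 without control replicate 1 and 0 without control replicate 2. With no single array left out, the lower count with the siRNA was 7 with cyclic loess, 8 with the 2 groups fitted alone and 8 with array weights. Leaving out either PIAS3 array gives this comparison the same fit as the 2 groups alone. The 8 found there thus shows no reliance on a single array. All 4 transfected arrays were below both controls for 12 of 30 and above for 4, beside 10.7% and 9.01% of all genes. The median difference was -0.19 with PIAS3 and -0.09 with the siRNA.

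Hemidesmosome components and lateral membrane partners were measured for 15 of 16 genes, with 0 past the threshold in limma in either comparison with control. At an unadjusted p under 0.05, 5 of 15 were lower and 0 higher with PIAS3, beside 7.44% and 7.13% of all genes, and 1 was lower and 0 higher with the siRNA, beside 3.06% and 2.32%. The 5 were 1 without control replicate 1, 2 without control replicate 2 and 3 without PIAS3 replicate 1, and they were 3 with quantile normalization again and 2 with cyclic loess. The 1 with the siRNA was 0 when any single control or siRNA array was left out. SDC4, a heparan sulfate proteoglycan that acts with the fibronectin receptor, read 9.12 and 9.02 in control, 8.03 and 8.63 with PIAS3 and 8.51 and 8.53 with the siRNA (-0.74 ± 0.19 and -0.55 ± 0.19). With PIAS3 it was -0.44 without PIAS3 replicate 1, and -1.04 without PIAS3 replicate 2, where it passed. PLEC, the plectin that ties beta-4 to keratins, stood at -0.43 ± 0.14 and -0.10 ± 0.14, CAV1, caveolin-1, at -0.34 ± 0.13 and -0.11 ± 0.13, and CD44, a hyaluronan receptor, at -0.38 ± 0.15 and -0.16 ± 0.15. The median difference was -0.13 with PIAS3 and -0.10 with the siRNA.

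**Figure D4:**
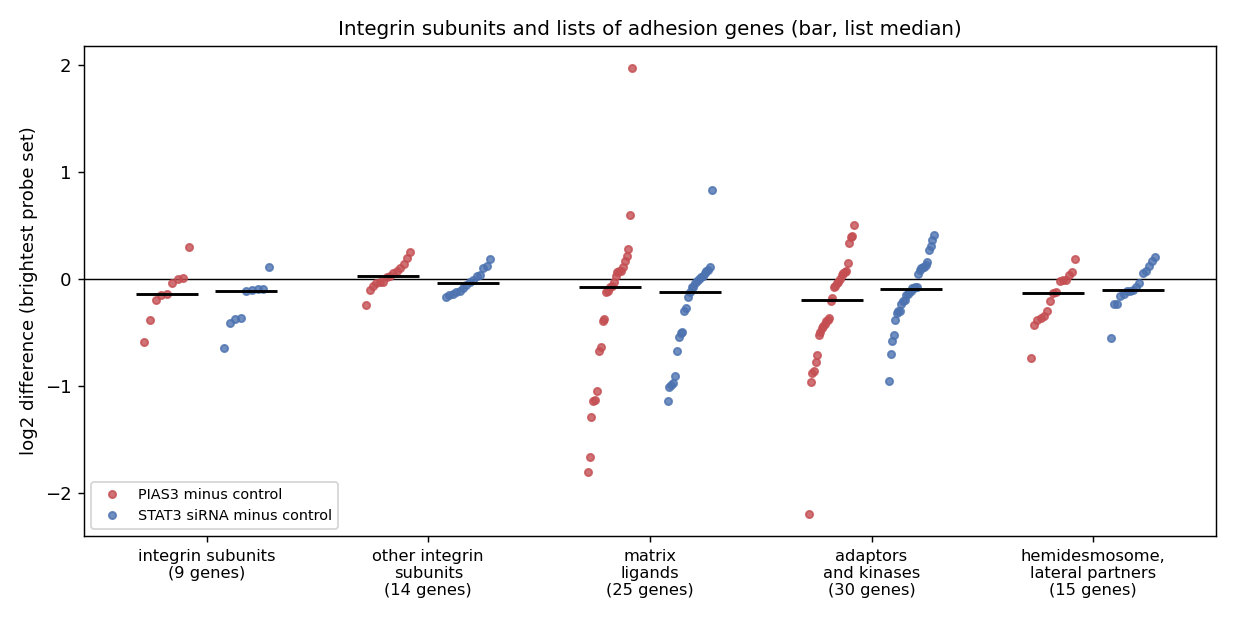
Log2 differences from control (vertical axis) of the 9 integrin subunits and of the measured genes of 4 lists, 1 point per gene by its brightest probe set, red for PIAS3 and blue for the STAT3 siRNA; bars are list medians. The integrin subunits spanned -0.59 to 0.30 with PIAS3, while matrix ligands spanned -1.80 to 1.97 and adaptors and kinases -2.19 to 0.51; the farthest points, SPP1 at 1.97 and PDLIM7 at -2.19, were named after their values were seen.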

How the data were processed

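The values are log2 signals of probe sets as deposited by the authors, made with RMA (background correction, normalization between arrays, probe summary) per the submitters' processing notes. No version of RMA is named. Arrays were grouped by their titles. After leaving out 62 array control probe sets, 22215 were fitted in R 4.3.3 by limma 3.58.1 (two-sided lmFit and eBayes tests, all 6 arrays, 1 mean per group, 3 residual and 4.27 prior degrees of freedom), with Benjamini-Hochberg adjustment per comparison at 0.05. Errors are the fit's standard errors. The fit was tested on simulated data. The platform annotation gave 1 symbol to 19064 probe sets, several to 1043 and none to 2108; those with several or none were not used as genes. Motifs were searched in RefSeq promoter windows (GRCh38.p14). All 10 subunits were named, with up to 4 genes of each list by the smallest p for PIAS3. Further adhesion genes came from the lists of other integrins, matrix ligands, adaptors and kinases, and hemidesmosome and lateral partners. Members and lists were chosen with earlier results of these data known. Alternatives were a replicate block, other normalizations and eBayes settings, a filter on dim probe sets, array weights, averaging the probe sets of a gene, and omitting each array in turn. The array weights were equal within each group, at 1.95 in control, 0.601 with PIAS3 and 0.855 with the siRNA. They therefore weigh groups against each other and cannot set PIAS3 replicate 1 below PIAS3 replicate 2. Scan or hybridization dates were not used here, and array batches were not tested.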

Additional observations from a re-analysis of the deposited data

How the results depend on the processing

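Of 456 alternative values of the subunits' differences, 427 kept their direction and side of the threshold, 28 turned and 1, ITGAV with PIAS3, passed. The value that passed came without PIAS3 replicate 2, the setting with the largest counts over all probe sets with PIAS3. Many of the 456 values could not turn, since some settings leave the log2 difference as it is. Those were the replicate block, the filter on dim probe sets, the eBayes settings, a looser threshold and the array weights. Fitting the compared groups alone, or omitting an array of the group not compared, also leaves it unchanged. The count of 427 thus does not measure how firm the directions were. ITGAV and ITGA5 kept their direction against control, and ITGB5 with PIAS3, in all alternatives that could change the value. With PIAS3, quantile normalization again and cyclic loess gave ITGB1 0.04 and 0.07, ITGB4 0.03 and 0.04, and ITGB8 -0.01 and -0.00. Averaging the probe sets of a gene gave ITGB8 -0.01 and ITGB3 -0.06 with PIAS3, ITGA6 0.03 and ITGB3 -0.07 with the siRNA, and ITGB4 -0.04 between PIAS3 and the siRNA. Cyclic loess gave ITGA3 0.01 and ITGA6 0.02 in that last comparison. The cause was not tested for these.

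Over the fits that leave out 1 array, the values that turned ranged as follows. With PIAS3 they were -0.47 to 0.17 for ITGA2, -0.06 to 0.05 for ITGB1, -0.16 to 0.09 for ITGB4, -0.11 to 0.13 for ITGB8, -0.51 to 0.02 for ITGAE and -0.02 to 0.30 for ITGB2. With the siRNA they were -0.32 to 0.10 for ITGA3, -0.28 to 0.11 for ITGA6, -0.05 to 0.24 for ITGB3 and -0.06 to 0.03 for ITGA10. Between PIAS3 and the siRNA they were -0.10 to 0.54 for ITGA2, -0.29 to 0.13 for ITGA3, -0.10 to 0.16 for ITGA5, -0.25 to 0.14 for ITGA6, -0.06 to 0.15 for ITGAV and -0.22 to 0.02 for ITGB8.

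Over all probe sets, 6 were higher and 16 lower with PIAS3. These counts were 0 and 2 with quantile normalization again and without dim probe sets, 10 and 29 with cyclic loess, 15 and 25 with robust eBayes, 130 and 132 when the 2 groups were fitted alone, 115 and 139 at an adjusted p of 0.10, and 57 and 86 with array weights. With 1 array left out they ranged from 0 to 541 and from 0 to 691, and the count of subunits called from 0 to 1. With the siRNA 0 were higher and 1 lower; the lower count was 0 with quantile normalization again and with cyclic loess, 3 with the 2 groups alone and 8 with array weights. With 1 array left out these ranged from 0 to 2 and from 0 to 3. Between PIAS3 and the siRNA 0 and 0 were called, and the ranges were 0 to 282 and 0 to 262. The largest counts with PIAS3 came without PIAS3 replicate 2.

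Deviations of arrays with the same replicate number had correlations of 0.09, -0.06 and -0.05, so the numbers were not taken as pairs. With the replicate number as a block, 1 probe set was called higher and 1 lower with PIAS3, and 0 subunits were called. ITGB8 has no value without dim probe sets, since its probe sets are below that filter. No alternative moved the median of all probe sets beyond -0.04 to 0.02. The fits without 1 array assume that the remaining array of its group varies like the other groups.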
